A study of Mus musculus with 18 samples.

Results

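The 44 genes described here encode hydrolases, soluble helper proteins and membrane proteins of the lysosome, and were measured as messenger RNA in primary mouse brain cultures and in the small extracellular vesicles (sEVs) the cultures released. The genes were chosen by symbol from a list of lysosomal components, and all 44 were found among the 54307 rows of the deposited expression table. They comprise 31 luminal enzymes (11 proteases, 11 glycosidases, 5 sulfatases and 4 lipid hydrolases), 3 luminal proteins that are not enzymes, and 10 membrane proteins. The study asked whether sEVs of different brain cell types carry particular messages, and has 6 groups of 3 libraries: astrocytes, microglia and neurons in primary culture from mouse brain, and the sEVs derived from each culture. No treatment, genotype, strain, age or sex is named for any group, and all 18 libraries came from poly(A) RNA made into cDNA from an oligo-dT primer. Replicates are numbered, but nothing says that they came from separate cultures or animals, so the p-values here measure only the spread between these libraries, which may be technical.

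The lysosome is the acidic compartment in which cells break down proteins, glycans, sulfated sugars and lipids. Its soluble enzymes are made on the endoplasmic reticulum, given a mannose 6-phosphate tag in the Golgi and carried to the endosome by receptors, while its membrane proteins form the glycan-rich lining, the lipid and ion transporters and the channels. Inherited loss of many of these genes causes lysosomal storage disease with damage to the brain, microglia are known for a high content of lysosomal proteases, and the factor TFEB is known to bind a CACGTG-type element in many lysosomal promoters.

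The values are normalized counts, that is, estimated counts divided by a scaling factor for each library, and differences are given on the log2(value + 1) scale as sEVs minus cells. The normalized counts of a library summed to 36947428 to 69276566 in cells and to 40672561 to 54740814 in sEVs. Libraries correlated with the others of their group at a mean r of 0.925 to 0.947 in cells and 0.813 to 0.921 in sEVs. The 14 microglia markers summed to 514474 to 578088 in microglia and to 10 to 198 in the other cultured cells. Their levels were uneven, with Siglech at 0, 0 and 20.2 and Tmem119 at 134.8, 453.5 and 430.7 in microglia. The astrocyte markers summed to 948182 to 1172217 in astrocytes, and the neuron markers to 235198 to 282294 in neurons. Fibroblast and meningeal markers summed to 151, 8388 and 14503 in microglia replicates 1, 2 and 3. The oligodendrocyte lineage markers summed to 259274 to 472457 in the astrocyte cultures and the astrocyte markers to 136756 to 150019 in the neuron cultures. In neuron sEVs the astrocyte markers summed to 114452 to 162299, above the neuron markers at 71145 to 99381. The part of these other cells in the results was not tested. Astrocyte sEV replicates 2 and 3 held 684 and 475 units of microglia marker signal against 54 in replicate 1. Results that rest on this difference are given with and without these libraries.

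The messages of lysosomal proteins were lower in sEVs than in their source cells. As a mean over the 3 cell types, 41 of the 44 genes fell at an adjusted p under 0.05 in limma's test with Benjamini-Hochberg adjustment over 19612 genes, where 37.1% of all tested genes fell. No gene of the 44 was called higher, where 12% of all tested genes were. Their median difference was -3.79 on the log2 scale, against -0.93 over all tested genes, and -3.65 over the 38 members with no group listed at 0. The genes that were not called lower were Ctss, Ids and Cd68. Within cell types, 35 of 44 fell in astrocyte sEVs (background 18.6%, median -4.33 against -0.60), 31 in microglia sEVs (background 21.2%, -3.42 against -0.79) and 26 in neuron sEVs (background 18.9%, -3.14 against -0.47). No member was called higher in any of the 3 cell types in the fit of all 18 libraries. Of all tested genes 8% were called higher in astrocytes, 5.08% in microglia and 11.1% in neurons. At an unadjusted p under 0.05 in limma, 1 member was higher in neurons and 0 elsewhere. Without astrocyte sEV replicates 2 and 3 the counts were 43 in the mean of the cell types, 32 in astrocytes, 38 in microglia and 32 in neurons, and the 2 genes added to the mean are Cd68 and Ctss, for which the 1 astrocyte sEV library left is at 0. Quantile normalization shifted the all-gene median by 1.0 in the mean over types, and the counts were then 41, 36, 31 and 33. Since RNA was measured in bulk, fewer vesicles that carry a message and less of it in each vesicle cannot be told apart.

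**Figure D1:**
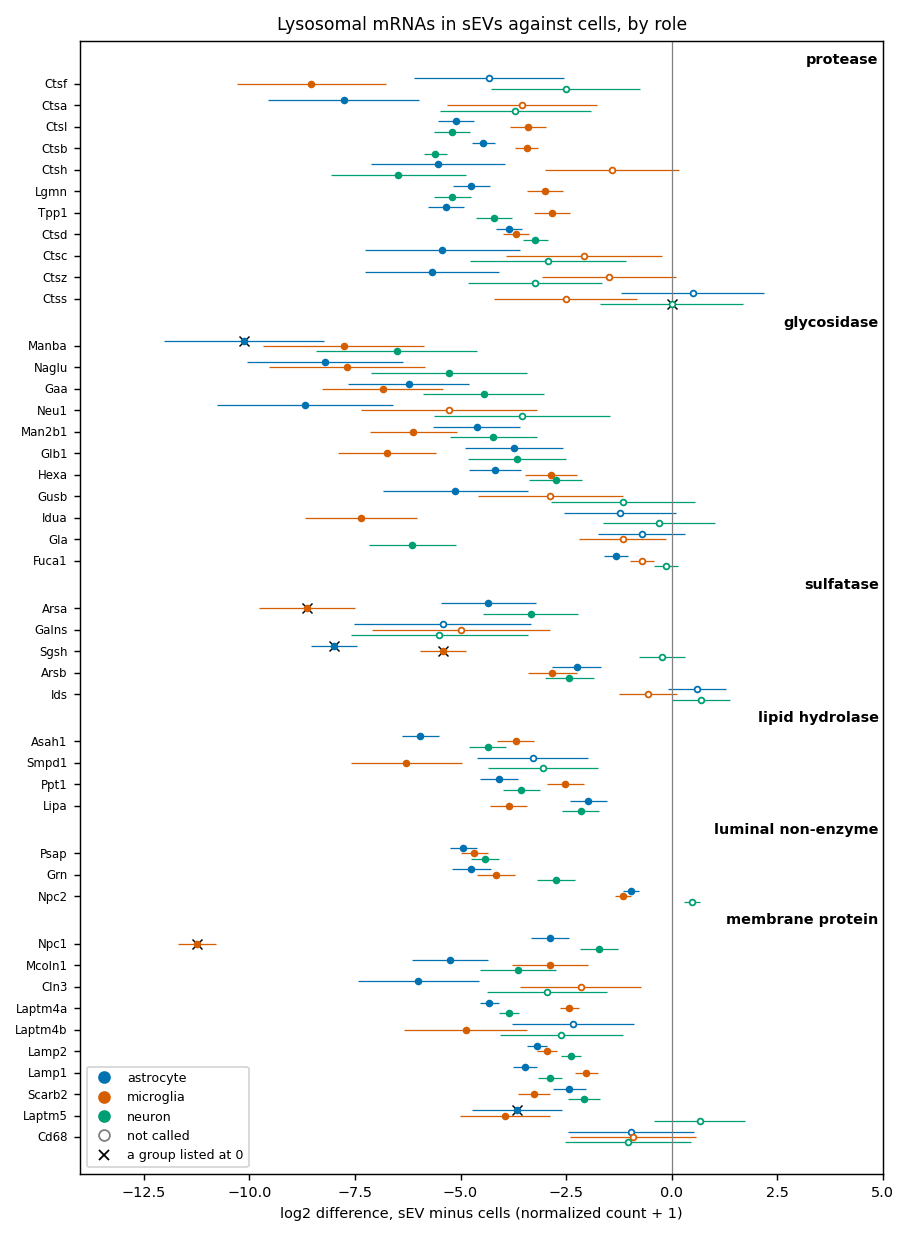
Difference between sEVs and cells for each of the 44 genes (rows, grouped by role) in astrocytes, microglia and neurons, as sEV minus cells on the log2(value + 1) scale with the SE of the fit as bars. Filled points are called, open points are not, and crosses have a group listed at 0. Most points lie left of 0 in every cell type and Ids, Cd68 and Npc2 are among those that lie near it.

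Libraries were also compared one by one. All 3 sEV libraries lay below all 3 cell libraries for 40 members in astrocytes (27.2% of all tested genes did so), for 43 in microglia (24.9%) and for 37 in neurons (34.2%). In all 3 cell types together this held for 35 of the 44 members, against 8.80% of tested genes. The exceptions were Cd68, Ctss, Galns and Ids in astrocytes, Ids in microglia, and Ctss, Fuca1, Idua, Laptm5 and Sgsh in neurons, where the groups overlapped. Neuron sEVs lay wholly above neuron cells for 2 members, Ids and Npc2.

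Together the 44 genes made up 7.16 to 7.67% of the normalized counts in microglia, 1.38 to 1.94% in astrocytes and 0.92 to 0.978% in neurons. In sEVs the share was 1.01 to 1.64% for microglia, 0.112 to 0.134% for astrocytes and 0.0888 to 0.118% for neurons. The sEV share was thus below the cell share in every library of each type, and the sEVs of microglia held a larger share than those of the other types. The luminal enzymes took 5.65 to 6.05% of the counts in microglia and 0.68 to 1.24% in their sEVs, and the membrane proteins 0.6 to 0.676% and 0.206 to 0.251%.

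**Figure D2:**
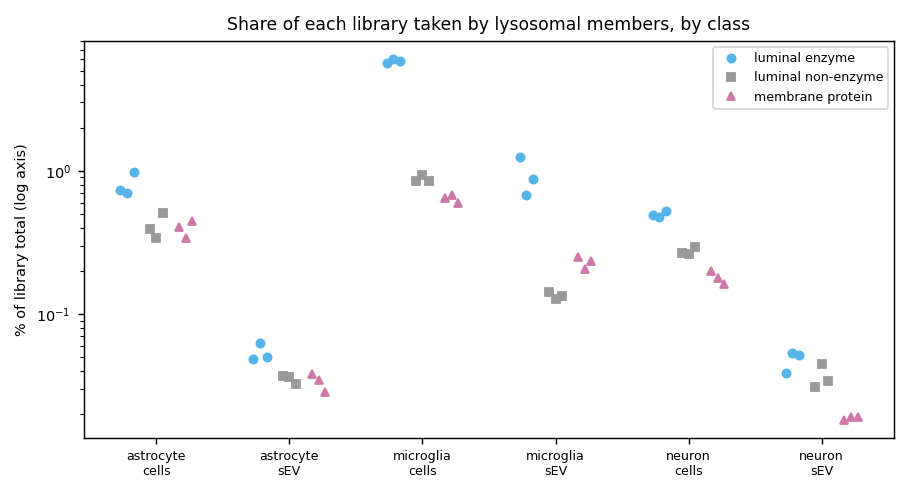
Share of each library's normalized counts, in percent on a log axis, held by the luminal enzymes, luminal non-enzymes and membrane proteins, 1 point per library. For each class every sEV library lies below every cell library of its type, and the luminal enzymes take the most in each group.

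The promoters of these genes are shown for CACGTG, a short form of the element that TFEB is known to bind in many lysosomal promoters. Of the 44 genes, 38 matched a RefSeq promoter (build GRCm38.p6, 250 bases before to 50 after the gene start), and each was searched on both strands for CACGTG, which reads the same on either strand. CACGTG occurred in 14 of the 38 (36.8%), against 8.09% of 27025 genes with a promoter and 11% of the 12853 such genes tested here. By class it occurred in 11 of 27 luminal enzymes, 0 of 3 luminal non-enzymes and 3 of 8 membrane proteins. Windows of 30 bases around a match are given below for 6 members, 3 membrane proteins and 3 enzymes, read 5′ to 3′ on the gene's strand, with the match in capitals. They lie at chr7:126583368-126583397 for Cln3 (minus strand), chr8:13159104-13159133 for Lamp1 (plus), chr8:3500462-3500491 for Mcoln1 (plus), chr7:142387908-142387937 for Ctsd (minus), chr11:101070009-101070038 for Naglu (plus) and chr11:119355522-119355551 for Sgsh (minus).
Cln3: gcaaccctcaagCACGTGatggaaggctca
Lamp1: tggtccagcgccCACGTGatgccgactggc
Mcoln1: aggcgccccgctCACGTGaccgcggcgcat
Ctsd: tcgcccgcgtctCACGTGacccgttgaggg
Naglu: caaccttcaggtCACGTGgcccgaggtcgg
Sgsh: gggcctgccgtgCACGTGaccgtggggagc
Lamp1 had 3 such matches within its promoter, of which 1 is shown. All 14 members with CACGTG were called lower in sEVs in the mean of the cell types, with a median of -4.56. Of the 24 members with a promoter but no match, 21 were called lower, with a median of -3.15. Among all tested genes 37.1% were called lower, and the share among those with CACGTG was not computed. Of the 14 members, 11 are luminal enzymes, and a link of the motif with the fall was not tested. The matches describe letters in these windows, and binding was not measured.

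The comparison of luminal enzymes with membrane proteins gave a larger median fall for the enzymes. In the mean of the 3 cell types 29 of 31 enzymes and 9 of 10 membrane proteins were called lower, and the medians were -4.31 and -3.06, a difference of -1.25 on the log2 scale. The 3 luminal non-enzymes, all called lower, had a median of -3.88. In astrocytes the enzyme and membrane medians were -4.62 and -3.33 (24 of 31 and 8 of 10 lower), in microglia -3.54 and -2.92 (20 of 31 and 8 of 10), and in neurons -3.54 and -2.49 (18 of 31 and 6 of 10). The class difference ranged from -1.46 to -1.01 when single libraries were left out. Taken library by library against the mean of the cells, the enzyme median minus the membrane median was -1.88 to -0.21 in 8 of 9 sEV libraries. It was 0.28 in astrocyte sEV replicate 2. Averaged over the 3 cell types within each replicate number, these library values had an SD of 0.35 over the numbers. This SD is not a spread of the -1.25. Over the 22 members with no 0 in any library, a subset that depends on how far a member fell, the medians were -3.86 for 14 enzymes and -2.84 for 5 membrane proteins, and with a pseudocount of 5 the difference was -0.93. No test of the class difference was made, since members are not replicates of a condition.

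**Figure D3:**
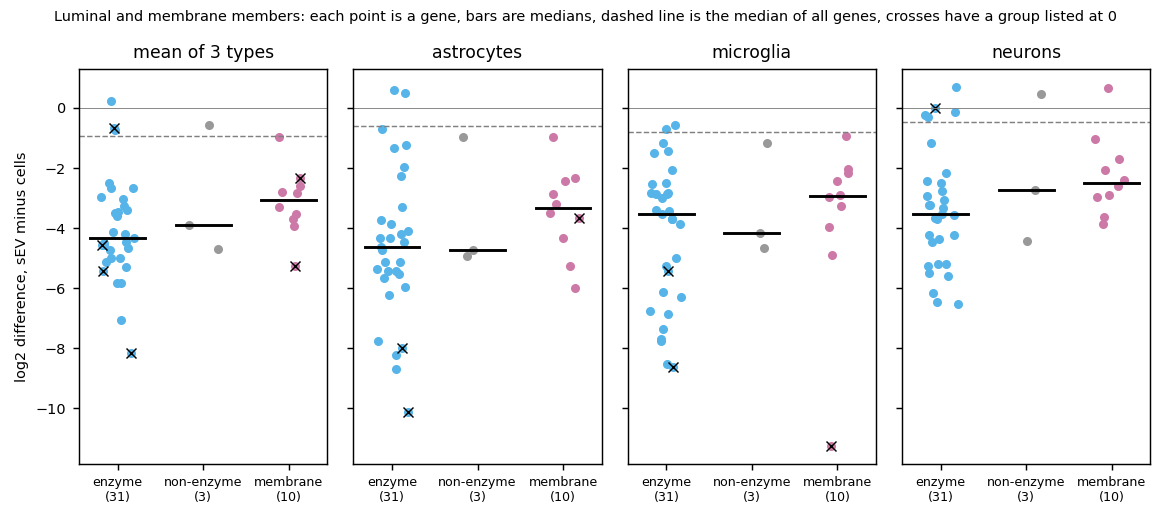
Differences between sEVs and cells (log2 scale, sEV minus cells) of the luminal enzymes, luminal non-enzymes and membrane proteins in each comparison. Bars are class medians, the dashed line is the median of all tested genes and crosses mark genes with a group listed at 0. In each panel the 3 class medians lie below the dashed line, and the membrane proteins' lies above the enzymes'.

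Of the 11 proteases, 10 were called lower in sEVs in the mean of the cell types, with a median of -4.31 over the 11. They fell in 9 of 11 genes in astrocytes, 6 in microglia and 6 in neurons. Cathepsin B (Ctsb), a cysteine protease, was measured at 66435, 59066 and 107836 in astrocytes and 2906, 4704 and 2886 in their sEVs, at 1691292, 1898723 and 1786405 in microglia and 249324, 109812 and 165987 in theirs, and at 57321, 68096 and 56842 in neurons and 1314, 1179 and 1239.7 in theirs. No sEV library reached the lowest cell library of its type. Its mean in sEVs was 4.5% of that in cells in astrocytes, 9.77% in microglia and 2.05% in neurons, a log2 difference of -4.50 ± 0.15 (SE, limma adjusted p = 1.82e-11) over the cell types.

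Cathepsin D (Ctsd), the main aspartic protease of the lysosome, stood at 44315, 40040.4 and 77302 in astrocytes and 2851, 5995 and 2651 in their sEVs. Microglia had 592899.6, 620939 and 585231 and their sEVs 62431, 33342 and 48216, and neurons had 22046, 23425 and 26045 and their sEVs 2068, 2798 and 2808. The groups did not overlap in any cell type, and sEVs held 7.11, 8.0 and 10.7% of the cell mean in astrocytes, microglia and neurons. The difference was -3.59 ± 0.17 (SE, limma adjusted p = 6.69e-10), and the F test gave no call of a difference between the cell types (adjusted p = 0.512). In GENCODE vM21 34.4% of the exonic bases of Ctsd are shared with the gene model Gm49369 on the same strand, so its counts could be split between them.

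Cathepsin S (Ctss), a cysteine protease of antigen-presenting cells, was a microglial message here. Microglia had 221845, 286145 and 266436 and their sEVs 58155, 39345 and 39899, a mean in sEVs of 17.7% of that in cells and no overlap. In astrocytes the values were 0, 145 and 22.5 and in their sEVs 0, 216 and 44.2, overlapping, and it was listed at 0 in all 6 neuron libraries. The astrocyte libraries spread so widely that the fit of all 18 libraries gave -2.51 ± 1.69 (SE, limma adjusted p = 0.317) for microglia, while the fit of the 6 microglia libraries gave the same difference with an adjusted p of 0.000249. The astrocyte sEV libraries with Ctss above 0 are replicates 2 and 3, which also hold more microglia marker signal, and the part of that signal in these values was not tested. Without both of them the only astrocyte sEV library left is at 0, so the value for that setting rests on that library alone.

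Cathepsin H (Ctsh), an aminopeptidase, was likewise highest in microglia, at 12326, 12061 and 12517, with 6352, 4968 and 3090.0 in their sEVs. Neurons had 683, 644 and 1431 and their sEVs 0, 12.5 and 66.4, and astrocytes 148, 297 and 269.7 and theirs 0, 0 and 120.5. The sEV values were below the cell values in every type, and 2 astrocyte and 1 neuron sEV library stood at 0, so those log2 differences rest in part on the pseudocount. The call in astrocytes (-5.53 ± 1.59 SE, adjusted p = 0.0184) was lost without astrocyte cell replicate 2 (0.0553) or 3 (0.0529) or astrocyte sEV replicate 1 (0.0838) or 2 (0.0763), and in the fit of the 6 astrocyte libraries (0.08). The other proteases called lower included Ctsl, cathepsin L, at -4.57 ± 0.24, Lgmn, the asparaginyl endopeptidase legumain, at -4.31 ± 0.25, and Tpp1, tripeptidyl peptidase, at -4.13 ± 0.25 (SE, mean of the cell types).

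All 11 glycosidases were called lower in the mean of the cell types, with a median of -4.71, and over the 10 with no group listed at 0 they ranged from -7.05 to -0.72 with a median of -3.99. In single cell types 9 of 11 fell in astrocytes, 7 in microglia and 7 in neurons. Hexa, the alpha subunit of beta-hexosaminidase that degrades gangliosides, had 9454, 8776 and 15739 in astrocytes and 158, 1720.4 and 794 in their sEVs. It had 74730.4, 75423 and 73619 in microglia and 11481, 7624 and 12434 in theirs, and 4398, 5582 and 6029 in neurons and 958, 1206 and 422 in theirs. No groups overlapped, and the difference was -3.26 ± 0.36 (SE, limma adjusted p = 3.42e-06).

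Man2b1, the lysosomal alpha-mannosidase, had 2605, 3069.5 and 4359 in the astrocyte cultures, 24023, 28832 and 25899 in those of microglia and 4658, 3910.2 and 4214 in those of neurons. The sEV values were 221, 50.5 and 202, 1867, 628 and 44 and 75.7, 479.5 and 315 in the same order. All sEV libraries lay below the cells of their type, and the sEV mean was 3.22 to 6.81% of the cell mean. The fall was -4.99 ± 0.60 (SE, limma adjusted p = 7.65e-06), and the call in astrocytes was lost without astrocyte sEV replicates 2 and 3 (adjusted p = 0.0688). At the low end of the group Manba, the beta-mannosidase, was listed at 0 in all 3 astrocyte sEV libraries against 889.9, 785 and 2008 in astrocytes.

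The smallest fall among the glycosidases was that of Fuca1, which removes fucose from glycans. Neurons had 6486, 6099 and 7489 and their sEVs 3508, 9077 and 7000.4, which overlapped, so that the sEV mean was 97.6% of the cell mean. Microglia had 19210.2, 21670.2 and 23143 with 12220.5, 12789 and 14287 in sEVs, and astrocytes 12399.8, 11668 and 21448 with 5747, 6554 and 5278, both without overlap. The differences were -1.32 ± 0.28 (adjusted p = 0.00292) in astrocytes, -0.70 ± 0.28 (0.0832) in microglia and -0.14 ± 0.28 (0.788) in neurons (SE, limma). The neuron value changed sign to 0.26 without neuron sEV replicate 1, and the microglia value passed the threshold without that library (0.0188) and with the microglia libraries alone (0.00517).

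Of the 5 sulfatases, 4 were called lower in the mean over types, Ids being the exception. Sgsh, which removes sulfate from heparan sulfate, was low in all cells, at 295, 176 and 314 in the astrocyte cultures, 51.9, 27.7 and 50.3 in those of microglia and 124, 114 and 234 in those of neurons. It was listed at 0 in all 3 astrocyte and all 3 microglia sEV libraries, and stood at 96.4, 189 and 113 in neuron sEVs, where 2 of the 3 libraries lay below the lowest neuron library and the groups overlapped. The neuron difference was -0.23 ± 0.55 (SE, limma adjusted p = 0.824), and it turned to 0.10 without neuron cell replicate 3 and to 0.39 under quantile normalization. In GENCODE vM21 21.6% of its exonic bases overlap Card14 on the opposite strand, and since the library kit does not mark strand, reads from the 2 genes cannot be told apart there.

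Arsa, arylsulfatase A, which degrades the myelin lipid sulfatide, was listed at 0 in all 3 microglia sEV libraries against 302, 484 and 424 in microglia. Astrocytes had 1217, 905 and 1950.5 and their sEVs 168, 305 and 4.0, and neurons 1667, 873 and 1555 and their sEVs 54.7, 187 and 209. No groups overlapped. It was called lower in astrocytes (-4.34 ± 1.13 SE, limma adjusted p = 0.0102) and in neurons (-3.34 ± 1.13, 0.0362). The call in astrocytes was lost in the fit of the astrocyte libraries alone (0.0768), and that in neurons when any 1 of the 6 neuron libraries was left out (0.0519 to 0.139).

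Ids, which removes sulfate from heparan and dermatan sulfate, was the 1 sulfatase that did not fall. Neurons had 2098, 1578 and 2289 and their sEVs 3577, 3383 and 2607, so every sEV library lay above every cell library. Astrocytes had 191, 219 and 251 with 324, 164 and 686 in sEVs, and microglia 347, 375 and 256 with 813, 158 and 79.9, both overlapping. The differences were 0.69 ± 0.68 (adjusted p = 0.516) in neurons, 0.60 ± 0.68 (0.586) in astrocytes and -0.56 ± 0.68 (0.644) in microglia (SE, limma, all 18 libraries). The fit of the 6 neuron libraries alone gave the same 0.69 with an adjusted p of 0.026. The microglia value turned to 0.16 without microglia sEV replicate 3 and to 0.18 under quantile normalization, and without microglia sEV replicate 1 it was -1.51 with an adjusted p of 0.0445.

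All 4 lipid hydrolases were called lower in the mean of the cell types, with a median of -3.80. Asah1, the acid ceramidase, had 11628, 11428 and 19759 in astrocytes and 106, 252 and 410.2 in their sEVs, 32586, 37386 and 37407 in microglia and 4088, 1698 and 3044 in theirs, and 6947, 5106 and 6562 in neurons and 232, 251 and 453 in theirs. The sEVs held 1.8% of the cell mean in astrocytes, 8.22% in microglia and 5.03% in neurons. The groups were separate in each type, with a difference of -4.67 ± 0.26 (SE, limma adjusted p = 2.28e-09).

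Ppt1, which removes palmitate from proteins and whose loss causes an infantile storage disease of neurons, had 15758, 17048 and 22866 in the astrocyte cultures, 19132, 21252 and 22199 in those of microglia and 11101, 10314 and 12295 in those of neurons. The sEV values were 1752, 542 and 1313, 2787, 3216 and 5383 and 462, 1266 and 1449. Groups did not overlap, and the difference was -3.39 ± 0.25 (SE, limma adjusted p = 5.73e-08).

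Smpd1, the acid sphingomyelinase, had 994, 889.9 and 837 in microglia and 4.8, 274 and 0 in their sEVs. Astrocytes had 3861, 2988 and 8441 with 337, 675 and 457 in sEVs, and neurons 8036, 8099 and 8375 with 819, 1216 and 969. All groups were separate. The fit of 18 libraries, whose spread for this gene comes largely from microglia sEVs, gave -3.29 ± 1.31 (SE, limma adjusted p = 0.0802) in astrocytes and -3.05 ± 1.31 (0.0973) in neurons. Fits of each type's 6 libraries gave 0.00217 and 9.32e-06 for these, and 0.0878 for microglia, where the full fit had called -6.28 ± 1.31 (0.00245). The astrocyte and neuron values also passed without microglia sEV replicate 2 (0.000511 and 0.000689) or replicate 3 (0.0186 and 0.0241).

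**Figure D4:**
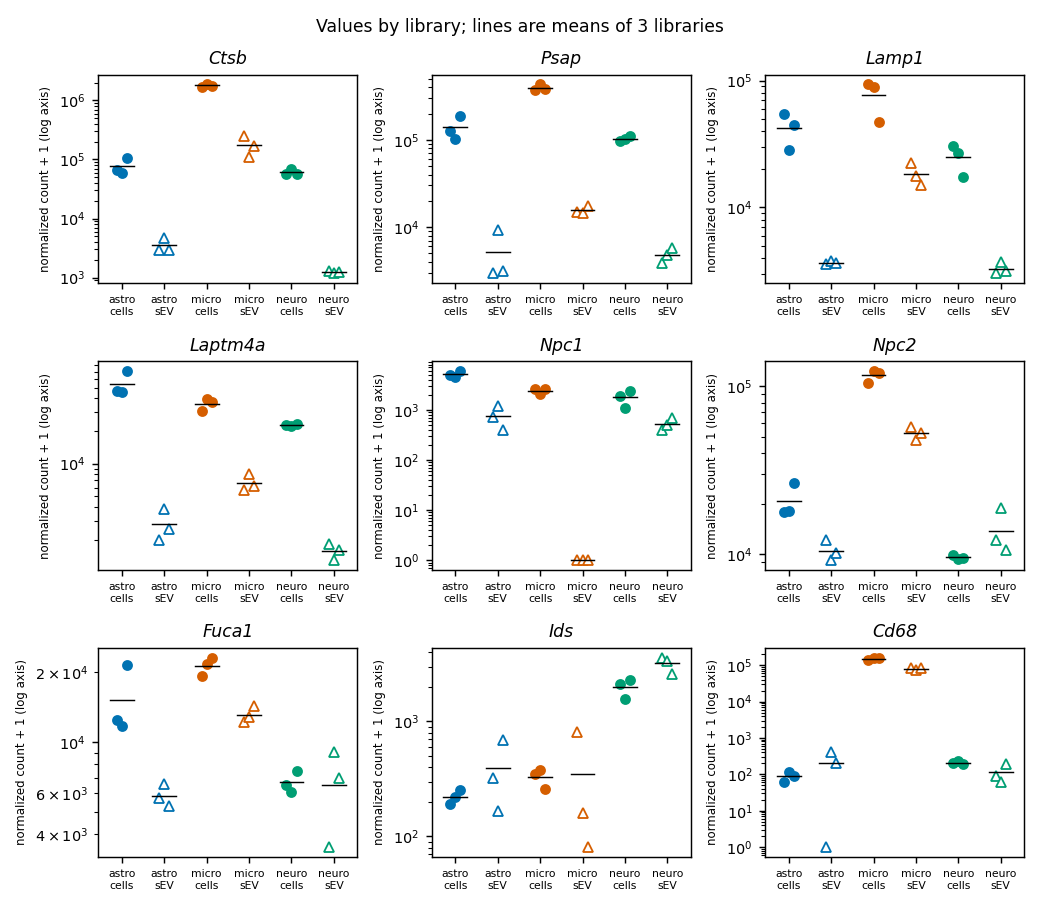
Normalized counts (log axis of value + 1) of selected members in all 18 libraries, cells and sEVs of each type side by side, 1 point per library and lines at the means of 3. Ctsb, Psap and Lamp1 show sEV points below the cell points in every type, while for Ids and Npc2 the neuron sEV points lie above the neuron cells.

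The 3 luminal proteins that are not enzymes were all called lower in the mean over types, by different amounts. Psap, the precursor of the saposins that help lipid hydrolases reach their substrates, had 125882, 102736 and 187325 in astrocytes and 2946, 9278 and 3110.1 in their sEVs. Microglia had 372258, 436311 and 382181 with 14724, 14649 and 17594 in sEVs, and neurons 96380.2, 101484 and 109726 with 3871, 4742 and 5811. The sEVs held 3.69, 3.94 and 4.69% of the cell mean in astrocytes, microglia and neurons, values close to each other, and the F test gave no call of a difference between types (adjusted p = 0.714). The groups were far apart in every type, and the difference was -4.68 ± 0.19 (SE, limma adjusted p = 1.17e-10).

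Grn encodes progranulin, a secreted and lysosomal protein whose loss causes a storage disease or frontotemporal dementia. Its values were 5939.8, 5664 and 9946 in the astrocyte cultures, 76976, 91653 and 82439 in those of microglia and 5397, 4719 and 6142 in those of neurons, and 157, 679 and 163, 4887, 6004 and 3382 and 601, 931 and 956 in the sEVs. No groups overlapped. The log2 differences were -4.74 ± 0.45 for astrocytes, -4.17 ± 0.45 for microglia and -2.73 ± 0.45 for neurons (SE, limma adjusted p = 2.14e-06, 5.82e-06 and 0.000253), and the F test of these effects had an adjusted p of 0.0724.

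Npc2, the luminal protein that hands cholesterol to the membrane transporter Npc1, had the smallest called fall of the 44. Neurons had 9841, 9317 and 9504 and their sEVs 12058, 18702 and 10587, every sEV library above every cell library. Astrocytes had 17848, 18015 and 26355 and their sEVs 12086, 9183 and 10079, and microglia 105185, 123529 and 120366 and theirs 57193, 47966 and 52506, all sEVs below all cells. The difference was -0.97 ± 0.19 for astrocytes (SE, limma adjusted p = 0.00131) and -1.15 ± 0.19 for microglia (0.000332). For neurons it was 0.48 ± 0.19 (0.0642), which passed the threshold without neuron sEV replicate 3 (0.65, 0.0215) or without astrocyte cell replicate 3 (0.041). The astrocyte call was lost without astrocyte sEV replicates 2 and 3 (-0.75, 0.0526). Levels per kilobase used each gene's longest protein-coding transcript in GENCODE vM21, which may not be the one expressed. On this measure Npc2 had the highest level of the 44 genes in astrocyte sEVs (3170) and neuron sEVs (4180), while in the cells it ranked 10 and 12.

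Of the 10 membrane proteins, 9 were called lower in the mean of the cell types, 8 in astrocytes, 8 in microglia and 6 in neurons, with a median of -3.06 in the mean. Lamp1 and Lamp2 are the heavily glycosylated proteins that line the lysosome. Lamp1 had 54347, 28134 and 44794 in astrocytes and 3553, 3775 and 3674 in their sEVs, 94039, 88329.5 and 47529.5 in microglia and 22262, 17710.0 and 14903 in theirs, and 30399, 26705 and 17244 in neurons and 3023, 3716 and 3141 in theirs. The sEVs lay below the cells throughout and held 8.64% of the cell mean in astrocytes, 23.9% in microglia and 13.3% in neurons, with a difference of -2.79 ± 0.16 (SE, limma adjusted p = 4.14e-09).

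Lamp2, a receptor of chaperone-mediated autophagy in one of its isoforms, had 26039, 26049 and 41454 in astrocytes and 3711, 4429.8 and 2258 in sEVs, 72752, 83913 and 80905 in microglia and 13716, 8623 and 8884 in sEVs, and 8396, 8619 and 7604 in neurons and 1477, 1669.5 and 1582 in sEVs. The groups were separate, at 11.1, 13.1 and 19.2% of the cell mean. Its difference of -2.84 ± 0.14 (SE, limma adjusted p = 6.86e-10) was close to that of Lamp1.

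Laptm4a, a small membrane protein of late endosomes and lysosomes, had 46744, 45299 and 71112 in astrocytes with 2003, 3810.3 and 2497 in sEVs. Microglia had 30503, 38936 and 36512 with 5709, 7979 and 6228, and neurons 22549.8, 22246 and 23005 with 1825, 1296 and 1612. No groups overlapped. The log2 difference was -4.32 ± 0.23 for astrocytes, -2.42 ± 0.23 for microglia and -3.85 ± 0.23 for neurons (SE, limma adjusted p = 8.29e-09, 1.63e-06 and 1.1e-08).

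Its relative Laptm4b had 8742, 9147 and 15572 in astrocytes and 2389.7, 2323 and 1710.1 in their sEVs, 7944, 7929 and 6946 in neurons and 1428, 1153 and 1178 in theirs, and 1029.6, 1188 and 1455 in microglia and 0, 426 and 164 in theirs. The groups were separate, and sEVs held 16.1 to 19.2% of the cell mean in the 3 types. The single 0 in microglia sEV replicate 1 set the spread of the full fit, which called microglia (-4.88 ± 1.45 SE, limma adjusted p = 0.0217) and not astrocytes (-2.34 ± 1.45, 0.267) or neurons (-2.61 ± 1.45, 0.205). Without that library the adjusted p was 8.85e-05 in astrocytes and 2.39e-05 in neurons, and the microglia call was lost without microglia cell replicate 2 (0.0572) or 3 (0.0633) and in the fit of the 6 microglia libraries (0.181). Over 685 bases its transcript is 96.6% identical to the pseudogene Gm6705, so its counts are uncertain to that extent.

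Laptm5, the family member of blood and immune cells, had 61257, 69241 and 63775 in microglia and 5266, 1806 and 7686 in their sEVs, which did not overlap. In astrocytes it stood at 16.1, 29.4 and 2.9 and in their sEVs it was listed at 0 in all 3 libraries, and neurons and their sEVs had 3.1, 0 and 0 and 0, 15.3 and 0. It was called lower in astrocytes from these low values. The call was lost with a pseudocount of 5 (limma adjusted p = 0.0617) and under quantile normalization (0.247). It was also lost without astrocyte cell replicate 1 (0.0671) or 2 (0.0893). The microglia difference was -3.95 ± 1.07 (SE, limma adjusted p = 0.0133), and 0.0501 without microglia sEV replicate 2. The neuron values are at the floor of the table, and their difference of 0.66 turned to -0.68 without neuron sEV replicate 2.

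Npc1, the membrane transporter that takes cholesterol out of the lysosome, had 4924, 4443 and 5994 in astrocytes and 711, 1196 and 391 in their sEVs, and 1866, 1096 and 2379 in neurons and 394, 502 and 700.1 in theirs. Microglia had 2579.5, 2105 and 2606 and all 3 of their sEV libraries were listed at 0, so no fold is given there. The difference was -2.87 ± 0.45 for astrocytes (SE, limma adjusted p = 0.000255) and -1.71 ± 0.45 for neurons (0.0094), the latter 0.0551 without neuron cell replicate 3. Groups did not overlap in any type.

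Cd68, a glycoprotein of macrophage lysosomes and a common marker of microglia, was the 1 membrane protein not called lower in the mean of the cell types. Microglia had 140091, 160512 and 156033 and their sEVs 84505, 72402 and 84991, without overlap, and sEVs held 53.0% of the cell mean. Astrocytes had 60, 115 and 90.9 with 0, 416 and 210.2 in sEVs, overlapping, and neurons 209, 226 and 191 with 86.7, 62.2 and 189.8, with the highest sEV library just under the lowest cell library. The microglia difference was -0.92 ± 1.49 (SE, limma adjusted p = 0.772) in the fit of 18 libraries and had an adjusted p of 0.00104 with the microglia libraries alone. In neurons the difference was -1.04 ± 1.49 (0.674). The astrocyte value of -0.96 ± 1.49 (0.712) turned to 1.78 without astrocyte sEV replicate 1, the library at 0, and was then called higher (adjusted p = 0.0089). Under quantile normalization it was 0.64 (0.713). Those above 0 among the astrocyte sEV libraries are replicates 2 and 3, which hold more microglia marker signal, and without both the 1 library left is at 0. The part of that signal in the astrocyte values was not tested. Per kilobase of the longest protein-coding transcript Cd68 had the highest level of the 44 genes in microglia sEVs (65600), where the cells were led by Ctsb (378000), Ctsd (282000) and Ctss (191000).

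The sEV effect differed between the cell types for 11 of the 44 genes by the F test (limma, adjusted over 19612 genes), where 21.6% of all tested genes were called. The members called were Npc1, Sgsh, Npc2, Laptm4a, Ctsb, Tpp1, Gla, Idua, Lgmn, Asah1 and Lamp1. The count was 7 without microglia cell replicate 1, without microglia cell replicate 3 or without neuron cell replicate 2, and 21 without astrocyte sEV replicates 2 and 3, where 30.6% of all genes were called. It was 20 under quantile normalization, with 25.4% of all genes. In pairs, the effects of astrocytes and microglia differed for 7 members (13.3% of tested genes), those of astrocytes and neurons for 3 (5.09%) and those of microglia and neurons for 11 (20.7%). With all libraries and the deposited scaling these shares of the members are close to the background.

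The named differences ran in several directions. For Laptm4a the astrocyte effect minus the microglia effect was -1.90 ± 0.32 (SE, limma adjusted p = 0.000902). The microglia effect was above the neuron effect by 2.17 ± 0.38 for Ctsb (0.000717), 1.44 ± 0.32 for Laptm4a (0.00518) and 2.19 ± 0.60 for Lgmn (0.0181), so these fell further in neuron sEVs. The effect on Npc2 minus that in neurons was -1.46 ± 0.26 for astrocytes (0.00348) and -1.63 ± 0.26 for microglia (0.000406).

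Idua, which removes iduronic acid from heparan and dermatan sulfate, had 3145, 3221 and 3081 in microglia and 0, 19 and 350.3 in their sEVs. Astrocytes had 1277, 1147 and 1683 with 844, 391 and 579.5 in sEVs, and neurons 939, 766 and 919 with 759.8, 495 and 944. The microglia and astrocyte groups were separate and the neuron groups overlapped. Its microglia effect minus its neuron effect was -7.06 ± 1.89 (SE, limma adjusted p = 0.0151), and 1 microglia sEV library at 0 makes this depend on the pseudocount.

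Gla, the alpha-galactosidase, fell furthest in neurons. Neurons had 819, 1030.1 and 843 and their sEVs 0, 65.1 and 29.5, against 403, 374 and 530.5 and 362, 243 and 206 in astrocytes and 12934, 14172 and 13372 and 8078, 5563 and 4891 in microglia. The sEV mean was 3.51% of the cell mean in neurons, 62.0% in astrocytes and 45.8% in microglia. Groups were separate in each type. The microglia effect was above the neuron effect by 4.98 ± 1.45 (SE, limma adjusted p = 0.0243) and the astrocyte effect by 5.43 ± 1.45 (0.0439). Neuron sEV replicate 1, listed at 0, makes both of these differences depend on the pseudocount.

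Among the cultured cells the microglia had the highest levels of most members. Microglia were above neurons for 32 members and below for 9 (41 of 44 called, background 71.7%, of which 19.9% higher and 51.8% lower in microglia). Astrocytes were below microglia for 27 and above for 10 (37 called, background 64.4%, 20.8% lower and 43.6% higher). Astrocytes and neurons differed for 26 members (background 32.5%), 18 higher and 8 lower in astrocytes, against 10.4% and 22.1% of all genes. Among the members that ran the other way, the largest differences were those of Laptm4b, which was 3.15 ± 0.23 higher in astrocytes than in microglia (SE, limma adjusted p = 5.13e-06), Sgsh at 2.57 ± 0.46 (0.00109) and, against neurons, Smpd1 at -3.17 ± 0.33 (3.24e-05) for microglia minus neurons. The largest differences in the microglial direction were those of Ctss and Laptm5, whose values in astrocytes and neurons are given above and lie at or near 0. Between astrocytes and neurons the largest calls were Lamp2, 1.89 ± 0.18 higher in astrocytes (7.93e-05), Laptm5 with low values in both, Ids at -3.16 ± 0.24 (2.79e-05) and Ctsh at -1.91 ± 0.35 (0.00358). The Laptm5 call was lost without astrocyte cell replicate 1 or 2 or neuron cell replicate 2 or 3 (adjusted p = 0.0741 to 0.078), and the Sgsh call between astrocytes and microglia under quantile normalization (1.12, 0.0666).

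In the sEVs microglia again stood above the others. Of the 44 members, 28 differed between astrocyte and microglia sEVs (background 39.5%), 24 lower and 4 higher in astrocyte sEVs (12.9 and 26.6% of tested genes), and 30 between microglia and neuron sEVs (58.9%), 23 higher and 7 lower in microglia (13.6 and 45.3%). Astrocyte and neuron sEVs differed for 3 members (14.9% of tested genes, 3.13% higher and 11.8% lower in astrocyte sEVs): Ctsb, which was 1.45 ± 0.31 higher in astrocyte sEVs (SE, limma adjusted p = 0.0177), Ids at -3.25 ± 0.89 (0.0467), and Sgsh, listed at 0 in astrocyte sEVs. Without any 1 neuron sEV library no member was called by limma (4 to 7 had an unadjusted p under 0.05). The calls of Ctsb and Ids were then lost, and Sgsh did not pass the filter, so it was not tested. The Ids call was also lost without astrocyte sEV replicate 1 (0.109) or 2 (0.117) and without microglia sEV replicate 2 (0.0574), with a pseudocount of 0.5 (0.0504), without the filter on low values (0.0593) and under equal library totals (0.0731). The neuron sEV libraries held more astrocyte than neuron marker signal, and its part in the comparison with astrocyte sEVs was not tested. Npc1 and Arsa, listed at 0 in microglia sEVs, were above 0 in all astrocyte and neuron sEV libraries.

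Few members were undetected in all sEV libraries of a cell type. Of the 43 members with a mean of at least 50 in astrocytes, 2 (4.65%) were listed at 0 in all 3 sEV libraries, Sgsh and Manba, against 3.49% of all such genes. In microglia it was 2 of 43 (4.65%), Arsa and Npc1, against 8.96%, and in neurons 0 of 42 against 2.78%. At least 1 sEV library at 0 occurred for 13, 10 and 5 of them, which is 30.2, 23.3 and 11.9%, against 20.4, 36.9 and 10% of all genes. Lower numbers of members at 0 thus went with neuron sEVs, as for the genes at large.

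Across the 44 genes, which share libraries and depth, Spearman's rho between the length of the longest protein-coding transcript (1230 to 6168 bases, GENCODE vM21) and the difference in the mean of the cell types was -0.16, given as a description. In the same annotation 16 of the 44 share exonic bases with another gene, 12.8% of the exonic bases for Ctsb and Hexa, 9.31% for Lamp1, 18.8% for Arsa, 26.8% for Ctsl and 32.3% for Arsb. Of the 28 without such an overlap, 25 were called lower in the mean of the cell types, with a median of -3.73.

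Other genes of the lysosome were grouped into lists by the place or role of their proteins. Of 48 further luminal and membrane proteins, 43 were called lower and 1 higher in the mean over types (37.1% and 12% of all tested genes), with a median of -3.17 against -0.93 for all genes. Cd63, a tetraspanin of late endosomes and a common vesicle protein, had 84390.1, 79307 and 135853 in astrocytes with 6154, 8840.0 and 5470.2 in sEVs, 118063, 138426 and 127159 in microglia with 52868, 38176 and 39876, and 13808, 12122 and 14873 in neurons with 1039.8, 1927 and 1129. All sEVs lay below the cells, with a difference of -2.93 ± 0.14 (SE, limma adjusted p = 6.86e-10). Spns1, a lysophospholipid transporter, and Ctns, the cystine transporter, were each listed at 0 in all 3 microglia sEV libraries, and their differences were -3.30 ± 0.41 and -3.35 ± 0.53 for astrocytes and -3.40 ± 0.41 and -3.81 ± 0.53 for neurons. The gene called higher was Tmem192, a membrane protein of lysosomes, at 1200.0, 930.5 and 311 in neurons and 3739.8, 4979 and 1819 in their sEVs. Astrocytes had 1367, 503 and 773 and their sEVs 2512, 3934 and 3017. Microglia had 4597, 3940.2 and 2917 and their sEVs 4479, 5037 and 4295, which overlapped. The sEVs of neurons and of astrocytes lay above their cells, and the difference was 1.48 ± 0.29 over the cell types (SE, limma adjusted p = 0.000632) and 0.29 ± 0.50 in microglia (0.791).

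All 7 genes of the targeting route, which puts the mannose 6-phosphate tag on hydrolases and carries or activates them, were called lower, with a median of -2.80. M6pr, the small mannose 6-phosphate receptor, had 8812, 8686 and 12556 in astrocytes and 1317, 2889 and 966 in sEVs, and 8020.0, 7734 and 8532 and 713, 539 and 672 in neurons. Its difference over the cell types was -2.80 ± 0.17 (SE, limma adjusted p = 6.64e-09). That of Sumf1, which activates the sulfatases, was -2.19 ± 0.33 (8.07e-05) and that of Igf2r, the large receptor, -5.36 ± 0.87 (0.000133), with values of at most 1.2 in microglia sEVs.

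The 34 genes of the cytosolic machinery that docks on lysosomes, such as the Ragulator and BORC complexes, were split: 9 were called lower, 12 higher and 13 neither, with a median of 0.02, where 37.1% of all genes fell and 12% rose. Lamtor5, a Ragulator subunit, had 3189, 3356 and 3378 in astrocytes and 8067, 6456 and 8107 in their sEVs, 5252, 5645 and 5755 in microglia and 13425, 12730.1 and 11834 in theirs, and 3288, 3773 and 3949 in neurons and 12154, 12835 and 11839 in theirs. Every sEV library lay above every cell library. It rose by 1.37 ± 0.07 (SE, limma adjusted p = 1.19e-09), Lamtor2 of the same complex by 1.51 ± 0.12 (8.66e-08) and Kxd1 of BORC by 1.51 ± 0.18 (7.73e-06). Under equal library totals the median of the 34 was -0.03, so its sign depends on the scaling, and 9 were lower and 11 higher. Under quantile normalization, where 21.5% of all genes were lower and 24% higher, 9 were lower and 16 higher with a median of 0.21, while the 44 members kept 41 calls and a median of -3.52.

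None of the 5 transcription factor genes for lysosome genes was called by limma in either direction, and 0 had an unadjusted p under 0.05, with a median of -0.28, -0.33 under equal totals and 0.66 under quantile normalization. Zkscan3, a repressor of lysosomal genes, had 2477, 2177 and 2601 in neurons and 1075, 831 and 869.5 in their sEVs, with -1.87 ± 0.90 over the cell types (SE, limma adjusted p = 0.0991). Tfec was found only in microglia, at 5289.9, 3565 and 4654, and in their sEVs at 8154, 8198 and 6873, and was listed at 0 in the other 12 libraries. Tfe3 had -0.28 ± 0.33 (0.493).

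**Figure D5:**
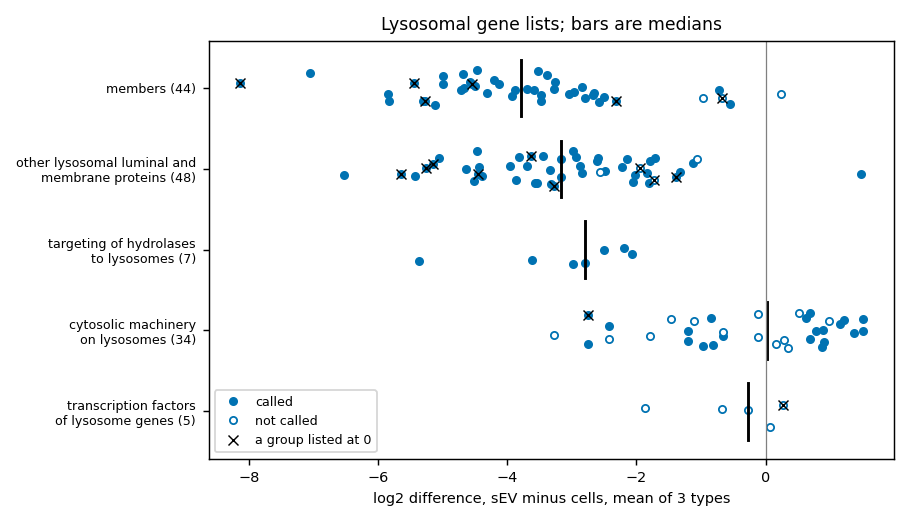
Differences between sEVs and cells in the mean of the 3 cell types (log2 scale) for the 44 members and the 4 other lysosomal lists. Filled points are called, open points are not, crosses have a group listed at 0 and bars are medians. The members, the other luminal and membrane proteins and the targeting genes lie mostly left of 0, and the cytosolic machinery lies on both sides.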

How the data were processed

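Poly(A) RNA of 18 libraries was measured, 3 replicates in each of 6 groups, and the labels' titles gave the groups. Per the labels' protocols, sEV RNA and RNA of part of the source cells were DNase-treated on the column, reverse transcribed from oligo-dT with a kit for low input, amplified with 15 PCR cycles and tagmented, which does not mark strand. The authors deposited a table of normalized counts (signal values) for 54307 genes. The tools named in the submitters' processing notes are Salmon 1.8.0 for quantification and DESeq2 for normalization, with the build GRCm39. Raw counts were not used here, so no count model was run, the reads behind a value are unknown and no counting interval is given. The deposited group means were not used.

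Values were compared as log2(value + 1) in R 4.3.3 by limma 3.58.1, using lmFit and then eBayes with a mean-variance trend. The sEV effect per cell type, its unweighted mean over types, its differences between types and their F test came from 1 model of 18 libraries. Pairs of types were tested in separate models of the 9 cell libraries and the 9 sEV libraries. A gene entered a model if 3 or more of its libraries reached 10, and calls are at a Benjamini-Hochberg adjusted p under 0.05 over all tested genes. All 44 members passed this filter in the models of all 18 libraries, the 9 cell libraries and the 9 sEV libraries. In fits with fewer libraries some did not. Without 1 neuron sEV library, 42 or 43 members were tested for astrocyte against neuron sEVs. Ctss, at 0 in all 6 neuron libraries, did not enter the fit of those libraries alone. The script was tested on simulated data. No p-value was computed over the list or its classes. No fold is given for a group listed at 0, and single libraries at 0 make a log2 difference depend on the pseudocount.

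The members and lists were chosen with earlier results of these data known. Genes given with values were those with the 2 smallest p in each role, members not called lower in the mean of the types, the 5 smallest F test p, the largest called differences between types, a fixed set of 11 well-known members, and in other lists the 3 smallest p and those called higher. Fuca1, Idua, Gla, Manba, Galns, Ctsl, Lgmn, Tpp1, Naglu, Mcoln1 and Cln3 were named outside this rule after their values were seen. Promoters are from RefSeq (GRCm38.p6), and lengths and exon overlaps from GENCODE vM21, an older build than that of the counts, so no other coordinates are printed. Sequence identity between transcripts was found with blastn 2.17.0. Alternatives were pseudocounts of 0.5 and 5, no filter, equal library totals, quantile normalization, a replicate block, only the 6 libraries of a type, other ways to compare the classes and leaving out each library. Leaving out astrocyte sEV replicates 2 and 3 together and leaving out members with an exon overlap were added after the data were seen. Cells and sEVs were not paired by replicate number except in the replicate block.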

Additional observations from a re-analysis of the deposited data

Results flagged for a closer look

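The effect of sEVs against cells differed between the 3 cell types for 11 members by limma's F test, adjusted over all tested genes. The adjusted p-values were 1.98e-07 for Npc1, 1.17e-05 for Sgsh, 0.000556 for Npc2, 0.00134 for Laptm4a and 0.00218 for Ctsb. They were 0.021 for Tpp1, 0.0219 for Gla, 0.0243 for Idua, 0.0337 for Lgmn, 0.0408 for Asah1 and 0.0414 for Lamp1. Npc1 was listed at 0 in all 3 microglia sEV libraries, and Sgsh in all 3 astrocyte and all 3 microglia sEV libraries. Tpp1, Asah1 and Lamp1 fell further in astrocyte than in microglia sEVs, with effects that differed by -2.52 ± 0.60, -2.26 ± 0.63 and -1.46 ± 0.40 on the log2 scale (SE, limma adjusted p = 0.0113, 0.0267 and 0.0241).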

How the results depend on the processing

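The 41 members called lower in the mean of the cell types stayed 41 in number without any 1 library, and the counts were 30 to 37 in astrocytes, 29 to 35 in microglia and 21 to 29 in neurons. Fits of a type's 6 libraries alone gave 31, 36 and 35. Without any 1 library the F test called 7 to 14 members, the difference of effects 3 to 10 for astrocytes and microglia, 2 to 4 for astrocytes and neurons and 7 to 13 for microglia and neurons, and astrocyte against neuron sEVs 0 to 4. Quantile normalization gave 20 by the F test (25.4% of all genes), 11 for astrocytes against microglia (14.2%), 5 for astrocytes against neurons (5.07%) and 7 for astrocyte against neuron sEVs (16%), where a pseudocount of 5 gave 5 (17%). Leaving out astrocyte sEV replicates 2 and 3, which leaves that arm with 1 library assumed to vary like the other groups, gave 21 (30.6%), 14 (16.6%), 11 (12.9%) and 8 (22.8%) and a class difference of -1.93 in place of -1.25. The cause of these shifts was not tested.

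Signs changed for genes near 0 or with libraries at 0. Under quantile normalization Cd68 in astrocytes was 0.64, Ids in microglia 0.18 and Sgsh in neurons 0.39. Without any 1 library, Cd68 in astrocytes ranged from -2.57 to 1.78, Ctss from -1.45 to 2.71 in astrocytes and from -1.32 to 0.07 in the mean of the types, and Ids from -0.07 to 0.48 in that mean and from -1.51 to 0.16 in microglia. In neurons Laptm5 ranged from -0.68 to 1.34, Sgsh from -0.51 to 0.10 and Fuca1 from -0.43 to 0.26. Without astrocyte sEV replicates 2 and 3 Ctss in astrocytes was -3.91, set by the 1 sEV library left, which is at 0.

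Pairing by replicate number was not visible in the values. Deviations from the group means correlated at -0.04 to 0.044 between same-numbered cells and sEVs, and not every library correlated best with its own number. This cannot show whether same-numbered cells and sEVs came from the same culture. With the replicate block 41 members were called lower in the mean of the types, 35, 31 and 26 within types, 11 by the F test, and 39, 27 and 42 between cells and 25, 2 and 30 between sEVs. The effects then differed for 7 (astrocytes and microglia), 2 (astrocytes and neurons) and 9 members (microglia and neurons). Of the genes given with values, the block ended the call of Ids between astrocyte and neuron sEVs (adjusted p = 0.0771) and changed no other.

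Depth limits what a value of 0 means. The reads behind a value are unknown here, so a gene listed at 0 in sEVs was not detected, which does not show that it was absent. The sEV libraries correlated less within their groups (mean r 0.813 to 0.921) than the cells (0.925 to 0.947).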
